A study of Mus musculus with 27 samples.

Results

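The comparison described here set cells that lack both XLF and PAXX against cells that lack XLF alone, to ask what the added loss of PAXX changed in the joining of switch-region breaks. The libraries were taken by genotype label, and they made up 12 of the 27 libraries of the series. All came from CH12F3 cells, a mouse B lymphoma line that can be induced in culture to switch its antibody class to IgA. The XLF-/-PAXX-/- group was 6 libraries, 3 from clone 1 and 3 from clone 2, and both clones were made from one PAXX-/- clone. The XLF-/- group was also 6 libraries, 3 from clone 1 and 3 from clone 2, and these clones were made from the parental line. Every group had been stimulated for 72 h with IL-4 (20 ng/mL), αCD40 and TGFβ (1 ng/mL), the signals that induce switching to IgA. The design text calls the 3 libraries of a clone biological replicates, but a genotype is carried by 2 clones only, so a property of a clone cannot be told apart from one of the genotype at that level.

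XLF and PAXX are related accessory factors of classical non-homologous end joining, the pathway in which Ku holds broken DNA ends and DNA ligase 4 with XRCC4 seals them. XLF stabilises the ligase at the ends, and PAXX binds Ku. In class switch recombination, activation-induced deaminase (AID) changes cytosines to uracil in the repetitive switch regions, with a preference for motifs such as AGCT, and the resulting breaks in Sμ and in a downstream switch region are joined with loss of the DNA between them. Joins that classical end joining makes are often direct, whereas joins made without it tend to use short stretches of sequence that both ends share (microhomology).

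Junctions were read by LAM-HTGTS, linear amplification from a fixed primer at the Iμ side of Sμ (the bait) across the join into the DNA joined to it (the prey). The bait alignments covered 134 bases on the minus strand of chromosome 12 (chr12:114664780-114664913, mm9). The bait is printed 5′ to 3′ because the results turn on where it ended, with its AGCT motifs (2) in capitals.

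bait: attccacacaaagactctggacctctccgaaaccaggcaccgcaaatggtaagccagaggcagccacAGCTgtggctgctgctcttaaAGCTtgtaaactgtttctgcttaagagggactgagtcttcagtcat

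Some clones carried a changed base in this bait. Positions are counted from 1 at the 5′ end of the bait above. The change C70T, at 114664844 in the first AGCT, was carried by 36.4% to 44.0% of the reads that covered the base in the 6 XLF-/-PAXX-/- libraries, against 0.274% to 0.498% in the 6 XLF-/- libraries. Reads counted as covering were those whose deposited bait alignment reached the base. Reads whose alignment stopped just before a changed base were left out, so the shares of changed bases given here can be too low. PAXX-/- clone 2 also carried C70T, in 40.0% of reads. That clone carried a further change at the adjacent base, G69A, in 50.9% of 6903 reads, which was not found as a changed base in either double-mutant clone. In the 18 libraries other than those of the double mutant and of that clone, C70T was in 0.219% to 1.35% of reads. The change G81A, at 114664833, was in 47.0% of covering reads in XLF-/- clone 1. The stretch that holds both bases (chr12:114664827-114664858, mm9, minus strand) is shown with the base concerned in capitals.

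C70T, reference: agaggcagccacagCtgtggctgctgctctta

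C70T, changed: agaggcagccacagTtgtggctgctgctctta

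G81A, reference: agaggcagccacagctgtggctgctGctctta

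G81A, changed: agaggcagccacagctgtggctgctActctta

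In many reads of these clones the bait alignment stopped just before the changed base although the read went on with the bait's next bases. The commonest Sα insertion of XLF-/-PAXX-/- that changed class in this way had 6 copies in 5 libraries, all of the double mutant, with its prey end at 114498199 and its bait end at position 69. It was deposited with an inserted base (the capital in the first line). With the bait carried on through the changed base, the same read has a microhomology of 3 bases (the capitals in the second line).

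as deposited: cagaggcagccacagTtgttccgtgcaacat

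read through: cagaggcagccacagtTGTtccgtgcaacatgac

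Results on joint structure are therefore given as deposited and again with the bait read through: in a clone that carries a changed base, a bait alignment that stopped just before it was extended through the changed base and on to the first mismatch. This treatment was chosen after seeing the data. The commonest exact Sα junction of each class is shown next, as 15 bait bases, the shared or inserted bases in capitals, and 15 prey bases. The direct one had its prey end at 114499344, with 5 copies in XLF-/-PAXX-/- and 1 in XLF-/-, and its bait also stopped at position 69. Read through, it had 3 shared bases in the double mutant. The microhomology one had its prey end at 114498448, with 6 copies in XLF-/-PAXX-/- and 6 in XLF-/-. The insertion had its prey end at 114500032, with 24 copies in 3 libraries of XLF-/-PAXX-/- and 0 in XLF-/-, and read through it was still an insertion, of 9 bases.

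direct: cagaggcagccacagttgacagtgagctag

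microhomology: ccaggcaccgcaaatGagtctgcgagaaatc

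insertion: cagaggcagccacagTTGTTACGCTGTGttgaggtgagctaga

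The libraries held 5309 to 9979 junctions in XLF-/-PAXX-/- (49215 in all) and 4370 to 10164 in XLF-/- (37282 in all). Of these, 21751 in the double mutant and 15849 in XLF-/- lay in the Sα window, 20 kb around the densest part of the acceptor region (chromosome 12, 114489501 to 114509500). Lines that repeated another line of the same library were 0.669% to 1.24% of the double-mutant libraries and 0.499% to 1.27% of the XLF-/- libraries. The share of exact Sα junctions that 2 libraries had in common was 6.24% to 17.0% between clones of one genotype and 4.84% to 14.8% between genotypes. The double mutant was read in 1 sequencing run of its own. The XLF-/- libraries came from 2 other runs, library 1 of each clone from the first and libraries 2 and 3 from the second. Run and genotype cannot be told apart, and values against each XLF-/- run are given beside the main results.

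Groups were compared by the difference of their means, the double mutant minus XLF-/-, with an exact two-sided permutation test over the 924 ways to split 12 libraries 6 against 6. The smallest p this allows is 0.00216. The test takes libraries as the unit, without regard to clone. With clones as the unit, 2 against 2, the smallest p is 0.333, so no test between clones was made. Intervals are 95% intervals from the inverted test. Adjusted p-values are Benjamini-Hochberg values over 35 measures, and a measure was called at an adjusted p under 0.05. As deposited, 13 of the 35 measures (37.1%) were called by this test, 8 higher and 5 lower in XLF-/-PAXX-/-. Among them was the share of Sα reads with a changed bait base, 26.6% ± 1.55 in XLF-/-PAXX-/- and 8.17% ± 7.35 in XLF-/- (exact permutation p = 0.00216, adjusted p = 0.00947). The bases it counts were picked by their frequency in these same clones, so its call says nothing of joining. The count of 13 changed with the libraries used. It was 9 without XLF-/-PAXX-/- clone 1 and 0 without XLF-/-PAXX-/- clone 2 (14 at an unadjusted exact permutation p under 0.05). It was 14 without XLF-/- clone 1 and 9 without XLF-/- clone 2, and 0 without the second XLF-/- run (8 unadjusted). Leaving out a clone raises the smallest p to 0.0119, and leaving out the second run raises it further. A lost call there need not mean a smaller difference. Without XLF-/-PAXX-/- clone 2 the Sα insertion difference was 6.02 points (exact permutation p = 0.0119, adjusted p = 0.0595), against 5.88 with all libraries. With the bait read through, 0 of 35 (0%) were called, and 7 had an unadjusted exact permutation p under 0.05, the changed-base share among them. Among bait ends that stopped before either changed base, 2 of 35 (5.71%) were called.

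The place where the bait ended differed at the changed base. Bait position 69, the base just before C70T, ended 8.64%, 9.16% and 9.53% of Sα junctions in the libraries of XLF-/-PAXX-/- clone 1 and 10.4%, 10.1% and 9.85% in those of clone 2, against 2.41%, 2.08% and 2.05% in XLF-/- clone 1 and 2.16%, 2.65% and 1.88% in XLF-/- clone 2. The groups did not overlap. The means were 9.61% ± 0.649 and 2.20% ± 0.279 (SD, n = 6 each), 7.41 points apart (95% interval 6.75 to 8.02; exact permutation p = 0.00216, adjusted p = 0.0133 over the 43 bait ends that held at least 1% of junctions). Read through, position 69 held 1.84% in the double mutant and 2.20% in XLF-/-. Position 72, past the changed base, held 2.93% ± 0.146 in the double mutant and 5.57% ± 0.295 in XLF-/- as deposited, and 5.04% and 5.57% read through.

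Of the 43 bait ends, 7 (16.3%) were called as deposited and 3 (6.98%) read through. Those called after reading through were position 74 (2.15% ± 0.265 in XLF-/-PAXX-/-, 1.36% ± 0.223 in XLF-/-), position 75 (1.62% ± 0.166 and 1.12% ± 0.195) and position 107 (1.35% ± 0.133 and 1.04% ± 0.132). At each the adjusted p from the exact permutation test was 0.0310, and the groups did not overlap. Positions 74 and 75 lie within a few bases of the changed base. Position 74 was lower in the double mutant as deposited, 0.685% against 1.36%. Bait ends within the AGCT motifs were 20.0% ± 0.629 in the double mutant and 14.5% ± 1.34 in XLF-/- as deposited (difference 5.48, 4.13 to 6.80, exact permutation p = 0.00216, adjusted p = 0.00947). Read through they were 14.6% and 14.5% (difference 0.163, -1.14 to 1.44, exact permutation p = 0.790). Motif positions were those of the reference bait. Ends at the first motif were therefore counted also in copies where C70T had changed it, and the values do not compare ends at an intact AGCT.

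**Figure D1:**
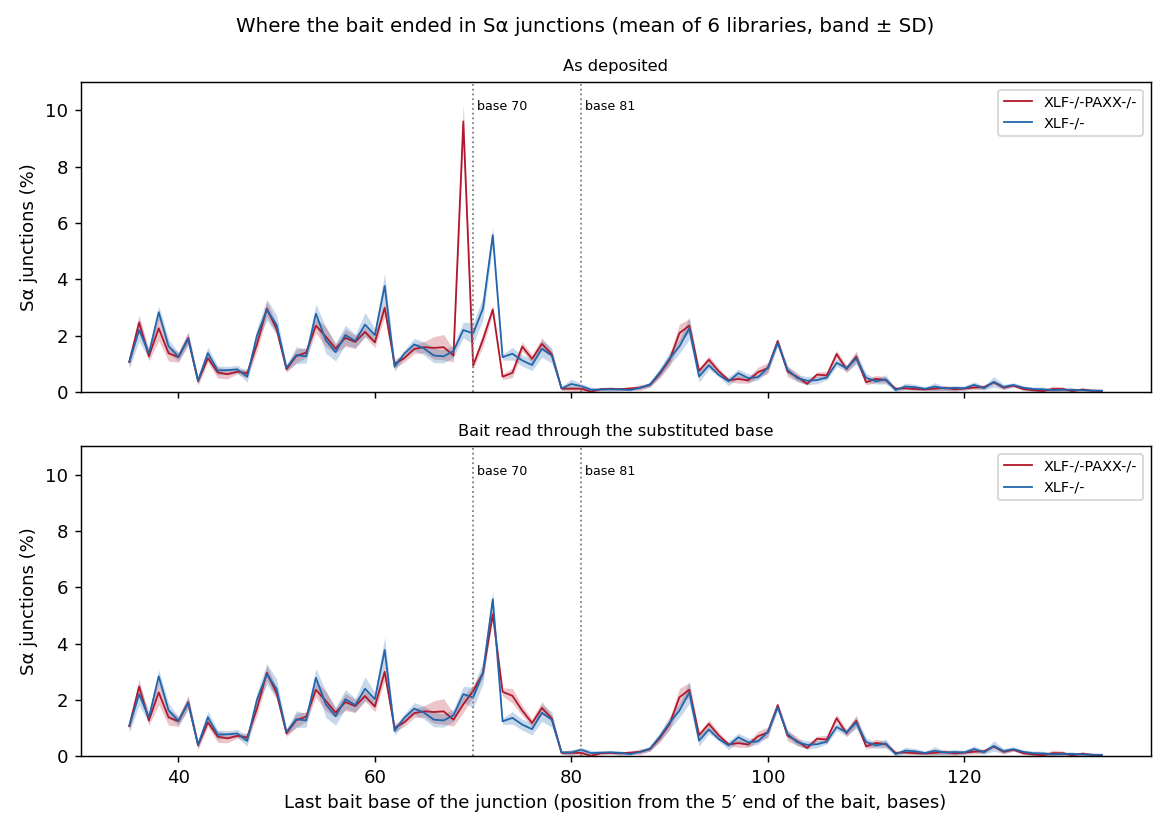
Share of Sα junctions (%, y axis) by the last bait base (position from the 5′ end of the bait, x axis) in XLF-/-PAXX-/- and XLF-/-, mean of 6 libraries with a band of ± SD, as deposited above and read through below. The double-mutant peak of 9.61% at position 69 is absent in the lower panel, where position 69 holds 1.84%.

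The share of Sα junctions with an insertion was higher in the double mutant as deposited. It was 24.2%, 21.7% and 23.8% in the libraries of XLF-/-PAXX-/- clone 1 and 22.1%, 23.5% and 23.3% in clone 2, against 19.3%, 15.4% and 17.2% in XLF-/- clone 1 and 17.1%, 18.1% and 16.3% in clone 2. Every double-mutant library lay above every XLF-/- library. The means were 23.1% ± 0.982 and 17.2% ± 1.36 (SD, n = 6 each), 5.88 points apart (95% interval 4.28 to 7.41; exact permutation p = 0.00216, adjusted p = 0.00947).

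Reading the bait through removed most of that difference. It extended 826 of 11089 Sα junctions (7.45%) in XLF-/-PAXX-/- clone 1 and 865 of 10662 (8.11%) in clone 2, against 30 of 9995 (0.300%) in XLF-/- clone 1 and 0 in XLF-/- clone 2, by a median of 3 bases in the double mutant. Of the extended junctions, 589 and 611 had been insertions in the double-mutant clones. Of these, 326 and 343 became microhomology joins, 86 and 85 became direct joins, and 177 and 183 stayed insertions. In all, 15.9% and 17.4% of the double-mutant insertions changed class, against 0.679% of those of XLF-/- clone 1.

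Read through, the insertion share was 20.5%, 18.4% and 19.8% in XLF-/-PAXX-/- clone 1 and 18.3%, 19.3% and 19.3% in clone 2, against 19.2%, 15.2% and 17.1% in XLF-/- clone 1 and 17.1%, 18.1% and 16.3% in clone 2. The groups overlapped through library 1 of XLF-/- clone 1. The difference was 2.11 points (95% interval 0.638 to 3.58; exact permutation p = 0.00866), and it did not pass after adjustment (adjusted p = 0.0758). It was 1.12 points against the XLF-/- libraries of the first run and 2.61 against those of the second. As deposited these values were 4.89 and 6.38.

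Among bait ends that stopped before both changed bases, which need no correction but drop the longer baits of every library, insertions were 20.4% ± 0.927 in XLF-/-PAXX-/- and 17.7% ± 1.03 in XLF-/-. That difference of 2.66 points (1.38 to 3.94) was called (exact permutation p = 0.00216, adjusted p = 0.0379), and the groups did not overlap. A narrower set was read past the changed base. In reads that ended at bait positions 71 to 79 and carried the reference C at position 70, insertions were 14.95% ± 2.43 in the double mutant (1729 reads) and 14.8% ± 2.73 in XLF-/- (2522 reads), 0.160 points apart (95% interval -3.20 to 3.54; exact permutation p = 0.903), an interval that holds the difference seen before the changed bases. The reads of the double mutant at the same positions that carried the changed T (2259 reads, read through) had insertions in 17.0% to 18.3% of cases by library, against 11.1% to 17.6% in its C reads, and the T reads were the higher in 6 of 6 libraries. That comparison within libraries was not tested.

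**Figure D2:**
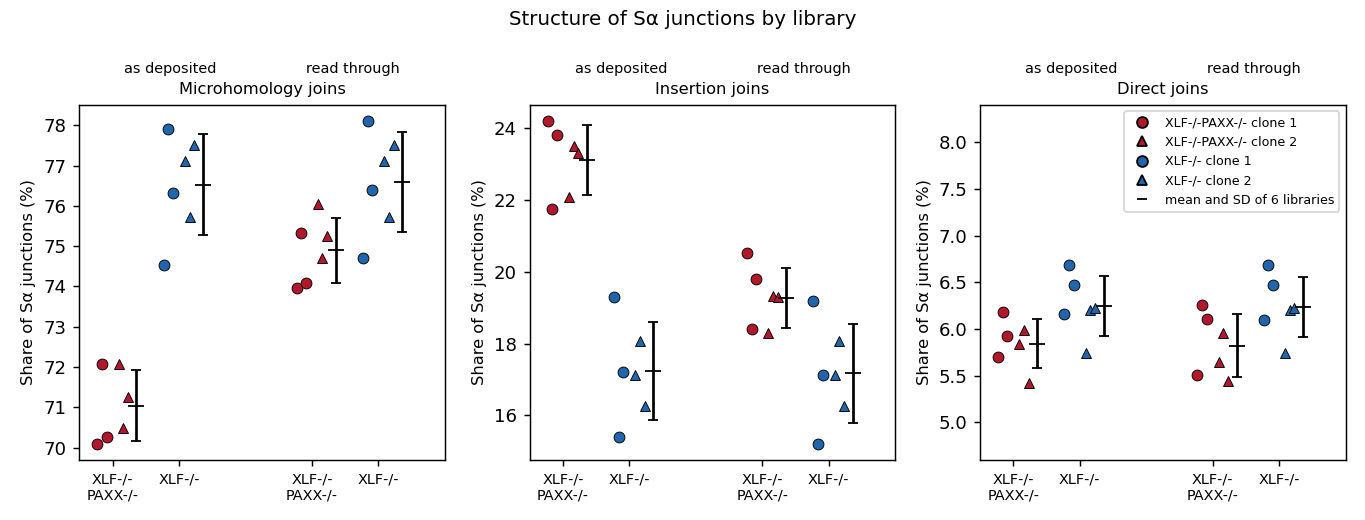
Microhomology, insertion and direct shares of Sα junctions (%, y axes, not starting at 0) in each library, XLF-/-PAXX-/- left of XLF-/-, as deposited and with the bait read through. Circles are clone 1 and triangles clone 2, and bars give the mean and SD of 6 libraries. The insertion means were 23.1% and 17.2% as deposited, and 19.3% and 17.2% read through.

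Microhomology joins were the larger part of Sα junctions in both genotypes, and their share moved opposite to that of insertions. As deposited they were 70.1%, 72.1% and 70.3% in XLF-/-PAXX-/- clone 1 and 72.1%, 70.5% and 71.3% in clone 2, against 74.5%, 77.9% and 76.3% in XLF-/- clone 1 and 77.1%, 75.7% and 77.5% in clone 2. The groups did not overlap, and the difference was -5.48 points (95% interval -6.90 to -4.05; exact permutation p = 0.00216, adjusted p = 0.00947). Read through it was -1.70 points and did not pass (95% interval -3.03 to -0.314; exact permutation p = 0.0238, adjusted p = 0.119). Before the changed bases it was -1.88 points and did not pass either (95% interval -3.16 to -0.566; exact permutation p = 0.0152, adjusted p = 0.0758).

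Direct joins were 5.84% ± 0.262 in XLF-/-PAXX-/- and 6.25% ± 0.317 in XLF-/-, with overlapping groups (difference -0.401, -0.775 to -0.0244, exact permutation p = 0.0368, adjusted p = 0.0920). Read through they were 5.82% and 6.23% (exact permutation p = 0.0563). Before the changed bases direct joins were 5.53% and 6.31% (difference -0.779, -1.37 to -0.182, exact permutation p = 0.0195, adjusted p = 0.0852). With insertions left out of the denominator, microhomology made up 92.4% ± 0.308 of the double mutant's joins and 92.5% ± 0.345 of those of XLF-/- (difference -0.0555, -0.472 to 0.366, exact permutation p = 0.766). Read through the values were 92.8% and 92.5% (difference 0.313, -0.145 to 0.813, exact permutation p = 0.169). As deposited and read through, the intervals thus hold differences of less than 1 point either way in how often a join without insertion used microhomology. Before the changed bases the values were 93.1% ± 0.485 in XLF-/-PAXX-/- and 92.3% ± 0.623 in XLF-/-. That difference was 0.722 (-0.0538 to 1.46, exact permutation p = 0.0628), with an interval that goes past 1 point.

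By length, microhomologies of 2 bases were 22.3% ± 0.673 of Sα junctions in XLF-/-PAXX-/- and 24.5% ± 0.612 in XLF-/-, and those of 3 to 4 bases 29.1% ± 0.526 and 31.9% ± 1.07. Both fell as deposited with no overlap between the groups, by 2.15 and by 2.86 points (exact permutation p = 0.00216 and adjusted p = 0.00947 for each). Read through the differences were -0.618 (exact permutation p = 0.149) and -1.50 (exact permutation p = 0.0130, adjusted p = 0.0758). Microhomologies of 1 base (11.3% and 11.2%, and 11.9% and 11.2% read through) and of 5 or more bases (8.30% and 8.93%, and 8.67% and 8.94% read through) were not called in either setting. Mean microhomology length was 2.84 ± 0.0323 bases in the double mutant and 2.87 ± 0.0460 in XLF-/- (difference -0.0304, -0.0838 to 0.0285, exact permutation p = 0.225), and the difference read through was -0.0358 (exact permutation p = 0.156).

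Insertions of 1, of 2 to 3 and of 4 to 10 bases rose as deposited, by 1.54, 2.29 and 1.85 points, and none of these calls held read through. Read through, the difference was 0.552 for 1 base (exact permutation p = 0.115, adjusted p = 0.268) and 0.570 for 4 to 10 bases (exact permutation p = 0.0758, adjusted p = 0.265). Those of 2 to 3 bases were 6.75% ± 0.453 in the double mutant and 4.46% ± 0.438 in XLF-/- (exact permutation p = 0.00216, adjusted p = 0.00947). Read through they were 5.38% ± 0.361 and 4.46% ± 0.428 (difference 0.921, 0.407 to 1.45, exact permutation p = 0.00433, adjusted p = 0.0758). Before the changed bases this class was called, at 5.70% and 4.45% (difference 1.25, 0.609 to 1.93, exact permutation p = 0.00216, adjusted p = 0.0379). Insertions of 11 or more bases were 3.94% ± 0.252 and 3.74% ± 0.725 and were not called in any of these settings.

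**Figure D3:**
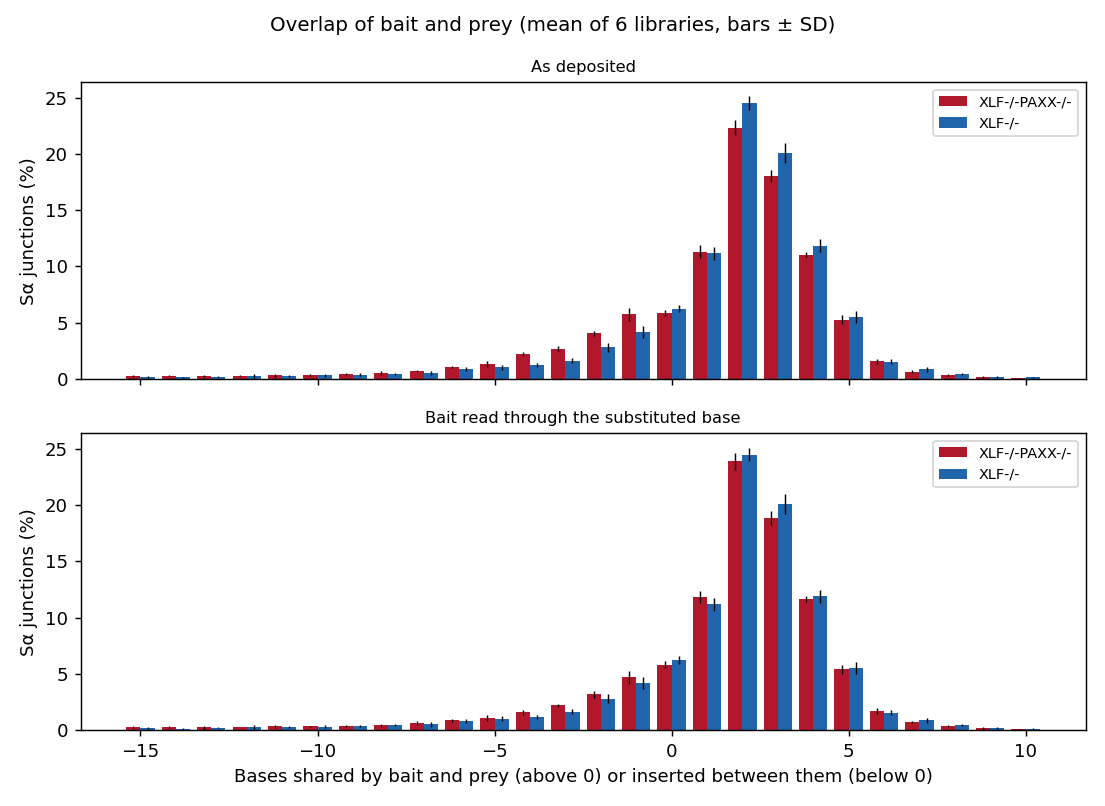
Share of Sα junctions (%, y axis) by the number of bases shared by bait and prey (above 0) or inserted between them (below 0), in XLF-/-PAXX-/- and XLF-/-, mean of 6 libraries with SD bars, as deposited above and read through below. The most frequent class in both genotypes was a microhomology of 2 bases, 22.3% and 24.5% as deposited.

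The inserted bases themselves showed where the deposited difference lay. A single inserted T was 2.93% ± 0.440 of Sα junctions in XLF-/-PAXX-/- and 1.48% ± 0.400 in XLF-/- as deposited (exact permutation p = 0.00216, adjusted p = 0.00866), the 1 of 4 bases (25%) that was called, and 1.63% and 1.48% read through. Of the 5 most frequent longer inserts, 4 (80%) were called. TT was 1.48% in the double mutant and 0.354% in XLF-/-, TTG 0.627% and 0.00365%, and TTGT 0.603% and 0.00365%, each with exact permutation p = 0.00216 and adjusted p = 0.00361. TTGT is the changed base and the 3 bait bases after it. The inserts were ranked by their frequency in these same libraries. TTG and TTGT, rare in XLF-/-, entered the list through the double mutant, so their calls and the count of 4 are no separate support. AA was lower, 0.355% and 0.470% (exact permutation p = 0.0108, adjusted p = 0.0135). Read through, TTGT was 0.00450% and 0.00365%, TT was 0.424% and 0.354%, and 0 of the 5 inserts (0%) were called, with 0 at an unadjusted p under 0.05. G or C made up 35.7% ± 0.563 of the bases in inserts of up to 10 bases in the double mutant and 40.4% ± 1.62 in XLF-/- as deposited (exact permutation p = 0.00216, adjusted p = 0.00866). Read through they made up 39.5% ± 0.845 and 40.4% ± 1.62 (exact permutation p = 0.251).

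The shared bases differed in sequence. The 5 most frequent microhomologies of each length from 2 to 4 bases were tested, and 6 of 15 (40%) were called as deposited. GC, the most frequent of all, was 3.99%, 4.61% and 4.16% of Sα junctions in XLF-/-PAXX-/- clone 1 and 4.01%, 4.29% and 4.74% in clone 2, against 4.76%, 5.74% and 5.61% in XLF-/- clone 1 and 5.65%, 6.04% and 5.81% in clone 2. Every XLF-/- library was higher than every double-mutant library, the nearest by a small margin (4.74% in XLF-/-PAXX-/- clone 2 against 4.76% in XLF-/- clone 1). The difference was -1.30 points (exact permutation p = 0.00216, adjusted p = 0.00812), and reading through did not move it.

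C70T removes a GC from the changed copies of the bait, and GC joins at position 70 were 0.197% ± 0.0655 in XLF-/-PAXX-/- and 0.559% ± 0.158 in XLF-/-. In XLF-/- clone 1, G81A also removes a GC from the changed copies. GC was lower in the double mutant at bait ends before both changed bases as well. There it was 5.62% ± 0.254 of Sα junctions in the double mutant and 7.43% ± 0.785 in XLF-/- (difference -1.81, -2.55 to -1.02, exact permutation p = 0.00216, adjusted p = 0.0216), the only 1 of the 10 sequences (10%) still found there that was called. By position, as a description, the GC at 38 held 0.537% ± 0.115 and 0.898% ± 0.129, the GC at 61 held 0.561% ± 0.111 and 0.870% ± 0.150, and the GC at 64 held 0.362% ± 0.122 and 0.548% ± 0.0388. The gap was smaller at 43 (0.742% ± 0.130 and 0.890% ± 0.191) and at 54 (0.757% ± 0.150 and 0.901% ± 0.174). The library ranges of the genotypes overlapped at each of these positions. Beyond the changed base the order was the other way, with 0.490% ± 0.0810 and 0.379% ± 0.0464 at position 91.

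CTG, GCTG and AGCT ended at or beyond bait position 70 and were lower in the double mutant in both settings. C70T removes a copy of each of them, and a copy of AGC, from the changed copies of the bait. In XLF-/- clone 1, G81A (47.0% of covering reads) also removes a copy of CTG and of GCTG from the changed copies. Reading through cannot restore these, so the second setting is no separate support. How much of the differences these losses made on either side was not tested. CTG was 1.90% ± 0.0922 in XLF-/-PAXX-/- and 2.39% ± 0.216 in XLF-/-, GCTG 1.10% ± 0.141 and 1.57% ± 0.179, and AGCT 0.865% ± 0.111 and 1.10% ± 0.0889, each with exact permutation p = 0.00216 and adjusted p = 0.00812. AGC was also lower, 1.56% and 1.95% (exact permutation p = 0.00649, adjusted p = 0.0162), and before the changed bases it was 2.08% and 2.51% (exact permutation p = 0.117). TG turned round with the treatment of the bait: it was 2.10% ± 0.124 in the double mutant and 2.71% ± 0.349 in XLF-/- as deposited (exact permutation p = 0.00649, adjusted p = 0.0162), and 3.14% ± 0.124 and 2.71% ± 0.349 read through (exact permutation p = 0.0130, adjusted p = 0.0325). Read through, again 6 of 15 (40%) were called.

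A set of 16 extra measures, chosen with the data in view, was adjusted among themselves, and 6 (37.5%) were called as deposited and 4 (25%) read through. The 4 were a lower G or C share of microhomology bases, 60.6% ± 0.399 in XLF-/-PAXX-/- and 62.1% ± 0.549 in XLF-/- read through (as deposited 61.8% and 62.1%, exact permutation p = 0.327); a lower microhomology share of deletional Sα junctions, 74.4% ± 0.741 and 76.2% ± 1.02; fewer microhomologies of 10 or more bases; and fewer repeat junctions on other chromosomes, below. Each had an adjusted p of 0.0346 from the exact permutation test. The G or C difference was called in that setting alone: it was -1.51 there, -0.820 where 2 further matching bases were required (exact permutation p = 0.0173, adjusted p = 0.0554) and -0.376 before the changed bases (exact permutation p = 0.329). Reading through can add the changed T and the bait bases after it to the shared bases, almost only in the double mutant. Its share moved from 61.8% to 60.6% by that step, so the call says nothing separate of joining. The deletional microhomology difference was -5.93 as deposited, -1.80 read through and -2.09 before the changed bases (exact permutation p = 0.00433, adjusted p = 0.0325). It kept its call in 14 of the 15 settings other than those that leave out 1 library. It lost the call without the second XLF-/- run (-5.49). Among inversional Sα junctions, the microhomology share read through was 77.7% ± 2.40 in XLF-/-PAXX-/- and 79.5% ± 3.84 in XLF-/-. That difference was of like size, -1.80 (-5.97 to 2.43, exact permutation p = 0.351), with a wider spread between libraries. As deposited it was -3.75 (exact permutation p = 0.0866), and it was called in neither setting. The deletional call thus does not show a trait particular to deletional junctions. Microhomologies of 10 or more bases were 0.158% to 0.280% of Sα junctions in the double mutant and 0.221% to 0.395% in XLF-/- as deposited, with overlapping groups (difference -0.117, -0.190 to -0.0425, exact permutation p = 0.00649, adjusted p = 0.0173). Libraries held 1703 to 4563 Sα junctions, so these shares rest on few junctions in each library. The difference in these long microhomologies kept its call in 8 of the 15 settings other than those that leave out 1 library. It was not called before the changed bases (-0.0489), thinned (-0.109), with a Sα window of 10 kb (-0.114), without XLF-/-PAXX-/- clone 1 (-0.115) or clone 2 (-0.120), without XLF-/- clone 1 (-0.0616) or without the second XLF-/- run (-0.0918).

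Orientation at Sα shifted a little. Deletional junctions, which keep the chromosome and remove the DNA between Sμ and Sα, were 83.1%, 82.7% and 82.6% in XLF-/-PAXX-/- clone 1 and 84.5%, 84.1% and 84.7% in clone 2, against 84.4%, 85.5% and 84.4% in XLF-/- clone 1 and 85.9%, 89.8% and 89.0% in clone 2. The groups overlapped between double-mutant clone 2 and XLF-/- clone 1. The means were 83.6% ± 0.940 and 86.5% ± 2.31 (SD, n = 6 each), and the difference was -2.90 points (95% interval -5.20 to -0.731; exact permutation p = 0.0130, adjusted p = 0.0350). It was -1.19 without XLF-/- clone 2, and -1.57 against the XLF-/- libraries of the first run and -3.56 against those of the second. Reading the bait through cannot change orientation, but the adjusted p became 0.0758, since fewer of the 35 measures then had a small p.

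No measure of position within Sα was called. The core, the shortest interval with 90% of Sα junctions when the clones of the whole series are weighted equally, was 6161 bp (114496668 to 114502828). Outside it lay 14.2% ± 1.20 of Sα junctions in the double mutant and 12.9% ± 1.17 in XLF-/- (difference 1.27, -0.294 to 2.75, exact permutation p = 0.0952, adjusted p = 0.218). The median position of deletional junctions lay 60.4 bp further from the bait in the double mutant (difference -60.4, -145 to 30.7, exact permutation p = 0.169), and that of inversional junctions differed by 133 bp (-366 to 627, exact permutation p = 0.532). Of inversional junctions, 21.3% ± 1.48 in XLF-/-PAXX-/- and 20.1% ± 3.36 in XLF-/- lay beyond the core edge nearest the bait (exact permutation p = 0.5). Junctions at an AGCT in the prey were 5.98% ± 0.693 and 6.27% ± 0.800 (exact permutation p = 0.509).

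Of 40 bins of 1 kb in the Sα and bait windows, 34 held junctions, and 0 (0%) were called by the permutation test, with 5 at an unadjusted exact permutation p under 0.05. One of these stood out with no overlap, and it is named after its value was seen. The bin 3 to 4 kb below the bait held 4.57% to 5.61% of bait-window junctions in the double mutant and 3.31% to 4.45% in XLF-/-, with means of 5.17% ± 0.379 and 3.89% ± 0.382 (difference 1.27, 0.771 to 1.77, exact permutation p = 0.00216, adjusted p = 0.0736).

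**Figure D4:**
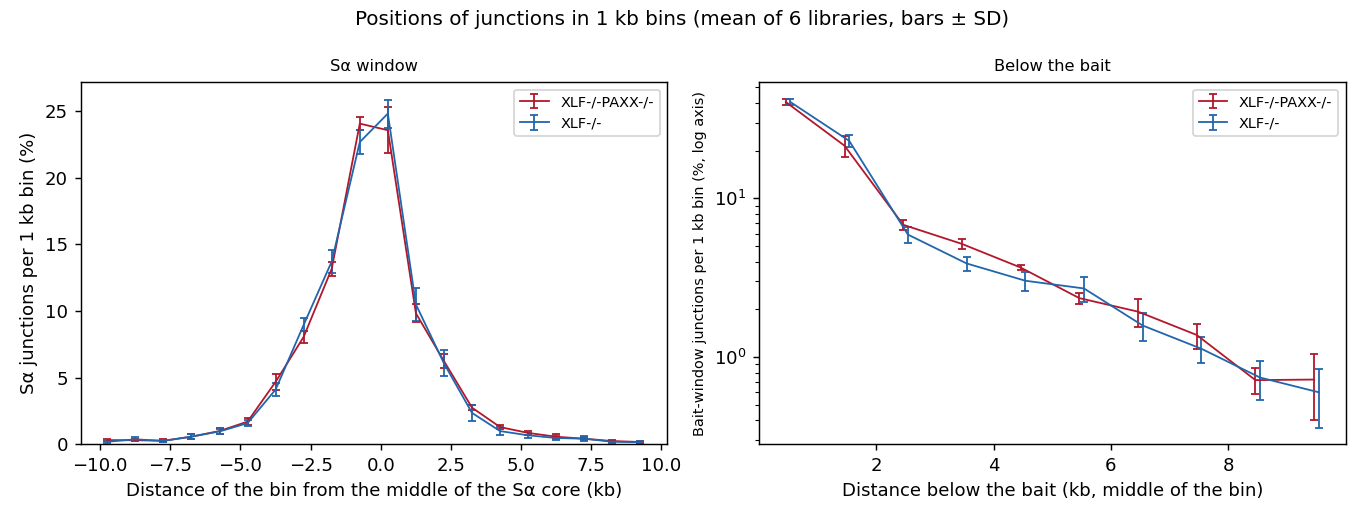
Left, share of Sα junctions per 1 kb bin (%, y axis) by distance from the middle of the Sα core (kb, x axis). Right, share of bait-window junctions per 1 kb bin (%, log y axis) by distance below the bait (kb, x axis). Lines are means of 6 libraries of XLF-/-PAXX-/- and XLF-/-, with SD bars. The bin 3 to 4 kb below the bait held 5.17% and 3.89%.

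Junctions near the bait, within 10 kb of it, can be joins of the bait break's own ends after some loss of sequence or joins to a second break nearby, which the tables do not tell apart. They were 31.9% ± 1.37 of all junctions in XLF-/-PAXX-/- and 30.8% ± 2.84 in XLF-/- (exact permutation p = 0.405). Among deletional ones, those more than 3 kb from the bait were 23.2%, 23.0% and 21.9% in XLF-/-PAXX-/- clone 1 and 21.5%, 22.5% and 24.0% in clone 2, against 19.9%, 19.7% and 19.6% in XLF-/- clone 1 and 23.0%, 18.2% and 19.4% in clone 2. Library 1 of XLF-/- clone 2 lay within the double-mutant range, and the other 5 XLF-/- libraries lay below it. The difference was 2.71 points (95% interval 0.997 to 4.23; exact permutation p = 0.0108, adjusted p = 0.0316). It was 1.24 against the first XLF-/- run and 3.45 against the second. It was no longer called when the bait was read through, where the value is the same and only the adjustment differs (exact permutation test, adjusted p = 0.0758). Among bait ends before the changed bases it was larger, at 25.5% ± 0.846 in the double mutant and 20.4% ± 3.13 in XLF-/- (difference 5.12, 2.27 to 7.79, exact permutation p = 0.00649, adjusted p = 0.0758).

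The 75th percentile of the distance was 2698 ± 106 bp in the double mutant and 2297 ± 268 bp in XLF-/- (difference 401, 145 to 652, exact permutation p = 0.0108, adjusted p = 0.0541 over 5 position measures). The median, 1069 bp and 1050 bp (exact permutation p = 0.491), and the 90th percentile, 5033 bp and 5004 bp (exact permutation p = 0.844), were not called. As deposited, insertions were 26.0% ± 1.50 in XLF-/-PAXX-/- and 21.5% ± 2.12 in XLF-/- (difference 4.49, 2.07 to 6.72, exact permutation p = 0.00866, adjusted p = 0.0275), and microhomology joins 67.0% ± 1.30 and 71.0% ± 1.70 (exact permutation p = 0.00649, adjusted p = 0.0227). Read through, insertions were 23.27% ± 1.603 and 21.5% ± 2.09 (difference 1.81, -0.609 to 4.10, exact permutation p = 0.115), and microhomology joins 69.98% ± 1.38 and 71.1% ± 1.68 (exact permutation p = 0.247). Before the changed bases the differences were 1.42 and -0.567. Neither was called without XLF-/-PAXX-/- clone 1 (5.05 and -4.30) or clone 2 (3.92 and -3.72), without XLF-/- clone 2 (3.39 and -3.23) or without the second XLF-/- run (3.11 and -2.81).

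How often the bait reached Sα varied more between clones than between genotypes. Of junctions outside the bait window, 62.4% ± 3.09 and 68.0% ± 3.30 lay in Sα in the XLF-/-PAXX-/- clones, against 70.6% ± 3.41 and 52.5% ± 6.72 in the XLF-/- clones (SD, n = 3 libraries each). The double-mutant clones lay between the 2 XLF-/- clones. The difference of 3.63 points (95% interval -7.16 to 14.7; exact permutation p = 0.472) was not called, and it was -5.41 without XLF-/- clone 2 and 12.7 without XLF-/- clone 1. Junctions on other chromosomes showed the reverse pattern, with 19.6% ± 2.53 and 14.7% ± 2.15 in the double-mutant clones and 13.5% ± 1.85 and 27.1% ± 5.49 in the XLF-/- clones (exact permutation p = 0.416 between genotypes).

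Between the Sα and bait windows, the stretch with the switch regions of the other constant genes, lay 2.75% ± 0.609 of junctions outside the bait window in XLF-/-PAXX-/- (915 junctions) and 2.22% ± 0.326 in XLF-/- (557 junctions), with an exact permutation p of 0.0996. Double-mutant clone 2 was high, at 3.28% ± 0.269, and clone 1 had 2.22% ± 0.150, against 2.14% ± 0.172 and 2.30% ± 0.464 in the XLF-/- clones. Over 16 windows of 10 kb in that stretch 0 (0%) were called, and 2 had an unadjusted exact permutation p under 0.05. These were the windows that start at 114540001 (0.233% and 0.121%, exact permutation p = 0.0108) and at 114640001 (0.271% and 0.169%, exact permutation p = 0.0173), both higher in the double mutant.

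On other chromosomes, direct joins were 14.7% ± 1.50 in XLF-/-PAXX-/- and 15.2% ± 3.16 in XLF-/-, and microhomology length was 3.92 ± 0.0937 and 3.98 ± 0.0940 bases. Read through these were 14.8% and 15.2%, and 3.95 and 3.98 bases. Microhomology joins were 60.1% and 56.9% as deposited and 60.9% and 56.9% read through, and insertions 25.2% and 27.9% as deposited and 24.3% and 27.9% read through. None of the 5 structure measures there was called in either setting. The distribution over 20 chromosomes did not pass either, with 0 called (0%) and 0 at an unadjusted exact permutation p under 0.05. The share of junctions there that lay in sequence masked as repeats was 39.3%, 38.6% and 38.1% in XLF-/-PAXX-/- clone 1 and 38.1%, 37.5% and 37.9% in clone 2, against 41.2%, 39.8% and 40.3% in XLF-/- clone 1 and 42.9%, 39.0% and 41.5% in clone 2. Only library 2 of XLF-/- clone 2 fell within the double-mutant range. The difference was -2.52 points (95% interval -3.93 to -1.12; exact permutation p = 0.00433, adjusted p = 0.0139). It was -3.79 against the first XLF-/- run and -1.89 against the second. With libraries thinned to equal depth it was -1.43 and did not pass (exact permutation test, adjusted p = 0.214), and before the changed bases it was -4.10 (exact permutation p = 0.00216, adjusted p = 0.0325). It was also not called without XLF-/-PAXX-/- clone 1 (-2.94) or clone 2 (-2.11), or without the second XLF-/- run.

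Windows of 10 kb off chromosome 12 were ranked by their junctions among those held by at least 3 of the 4 clones. The densest, on chromosome 14 (32420001 to 32430000), held 413 junctions in the double mutant and 266 in XLF-/-. The next held 41 and 35 (chromosome 8, from 125950001), 39 and 18 (chromosome 8, from 129110001), 31 and 22 (chromosome 14, from 115440001) and 23 and 25 (chromosome 1, from 20660001), the last with 16 of its 48 junctions in library 1 of XLF-/- clone 2. These are sums over libraries of unequal depth and were not tested.

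**Figure D5:**
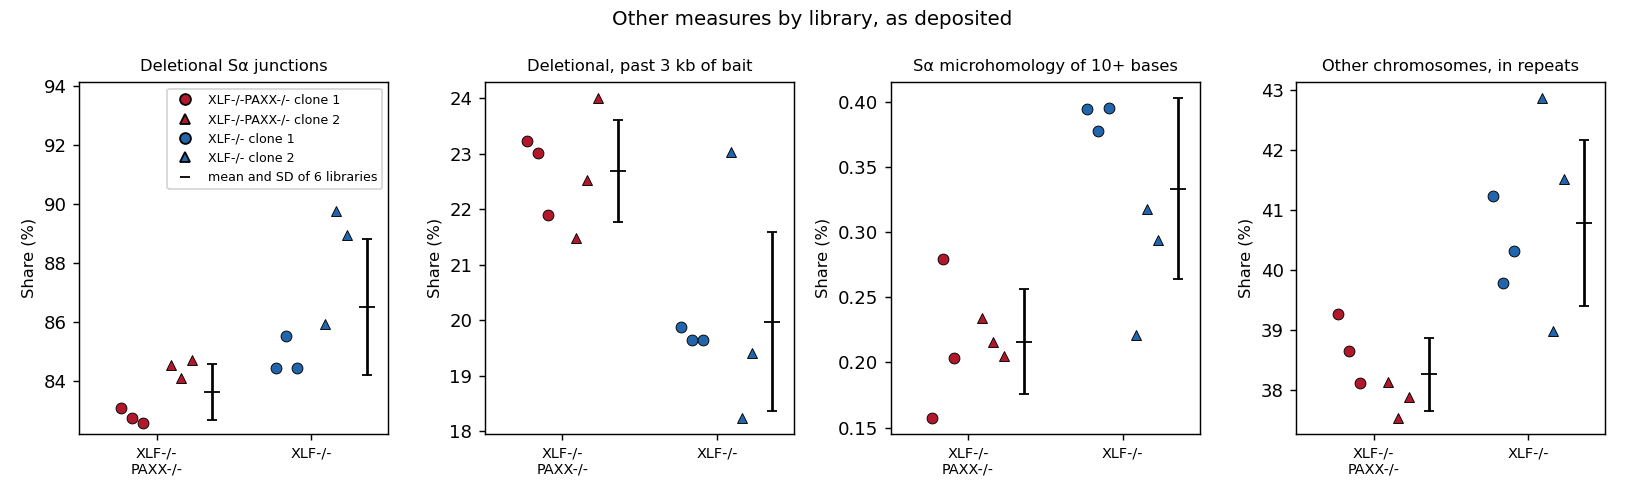
Share (%, y axes, not starting at 0) in each library of deletional Sα junctions, of deletional bait-window junctions past 3 kb, of Sα microhomologies of 10 or more bases and of repeat junctions on other chromosomes, XLF-/-PAXX-/- left of XLF-/-, as deposited. Circles are clone 1 and triangles clone 2, and bars give the mean and SD of 6 libraries. The means were 83.6% and 86.5%, 22.7% and 20.0%, 0.216% and 0.333%, and 38.3% and 40.8%.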

How the data were processed

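Each line of the deposited tables describes a single junction through the alignments of its bait and prey. Per the submitters' processing notes, reads were aligned by the authors with Bowtie2 to mm9. How junctions were called and filtered was not given in the sources used. These tables hold coordinates and sequences, of no fixed unit, and every share was computed here from them. Libraries were separated by the library name in each line, which carries no replicate number, so they were numbered by name only.

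Overlap was the number of read bases in both alignments: above 0 was microhomology, 0 direct and below 0 insertion. Junctions on the minus strand were deletional. The bait window took 10 kb to each side. A changed base was one carried by at least 20% of 1000 or more covering reads of a clone. The test, its adjustment and its unit stand in the report. It was tested on simulated shares with known differences. The simulated libraries were independent, without clones or runs, so this cannot show how the test behaves where libraries share a clone or run. Tests of bait ends, sequences, bins, windows and chromosomes were adjusted within each family. The measures named are the 11 main ones, all class measures, the most frequent microhomologies, inserts and junctions, and the 5 densest windows held by at least 3 of 4 clones. Members and lists were chosen with earlier results of these data known. Precision was set by 4370 to 10164 junctions per library. Python 3.11.15, numpy 2.4.6, pandas 2.3.3, scipy 1.17.1 and matplotlib 3.10.9 were used. Genes at named windows are not given, since no annotation of the mm9 build was used here.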

Additional observations from a re-analysis of the deposited data

Results flagged for a closer look

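In 5 of the 70 groups of 6 libraries tested (35 measures in 2 genotypes), the highest or lowest library stood far from the others as deposited; chance marks about 1 group in 20. In XLF-/-PAXX-/-, library 1 of clone 2 had the lowest share of Sα junctions outside the core, 11.8%, where the other 5 had 14.3% to 15.1%. In the same genotype, library 3 of clone 1 had the lowest share of inversional Sα junctions beyond the core edge nearest the bait, 18.4%, where the others had 21.4% to 22.5%. In XLF-/-, library 1 of clone 1 had the lowest microhomology share in the bait window, 67.8%, where the others had 70.9% to 72.6%, and the highest insertion share there, 25.6%, where the others had 19.5% to 21.5%. Library 1 of XLF-/- clone 2 had the highest share of deletional bait-window junctions past 3 kb, 23.0%, where the others had 18.2% to 19.9%. These XLF-/- libraries were the 2 of the first XLF-/- run.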

How the results depend on the processing

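The 12 main results (11 measures and the count of called bins) were recomputed under 27 settings: 287 of 324 values kept their direction and side of the threshold, as did 701 of 837 values of 31 other measures, the 24 class measures and the 7 of the 16 added ones that were called as deposited or read through; the other added measures were not recomputed. The settings that read the bait through, or left out the XLF-/- libraries of a run, were added after seeing the data. No paired analysis was possible because the library names carry no replicate number.

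The Sα insertion difference was no longer called read through (2.11, or 2.39 where 2 further matching bases were required), without XLF-/-PAXX-/- clone 2 (6.02) and without the XLF-/- libraries of the second run (4.89), which leaves 6 against 2 libraries. A set of 6 against 2 libraries raises the smallest p that can be reached, and so does leaving out a clone (to 0.0119). The microhomology difference was no longer called in these settings (-1.70, -2.21, -5.71 and -4.78) nor before the changed bases (-1.88). Leaving out each library in turn gave 5.51 to 6.30 for insertions and -5.88 to -5.20 for microhomology, all called. The deletional difference lost its call before the changed bases (-2.69), thinned to 4370 junctions (-2.33), without XLF-/-PAXX-/- clone 1 (-2.07) or clone 2 (-3.72), without XLF-/- clone 2 (-1.19), without the second XLF-/- run (-1.57) and in both read-through settings (-2.90), and leaving out 1 library gave -3.31 to -2.24, called in 6 of 12 cases. Calls gained were the direct share without the first XLF-/- run (-0.549), and, leaving out 1 library, a range of -0.502 to -0.314; the share outside the core without library 1 of XLF-/-PAXX-/- clone 2 (1.74; range 0.942 to 1.74); the Sα share and the share on other chromosomes without XLF-/- clone 1 (12.7 and -9.94); and the share between the windows without XLF-/-PAXX-/- clone 1 (1.05). Called bins numbered 2, against 0, with thinning and with a Sα window of 10 kb. The past-3-kb share gave 2.37 to 3.33 leaving out 1 library, called in 5 of 12 cases.

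Differences that were not called changed sign in some settings. Without XLF-/- clone 2 these were the Sα share (-5.41), other chromosomes (3.60), the bait window (-1.33), microhomology of 1 base (-0.0145), the microhomology and direct shares without insertions (0.180 and -0.180), inversional junctions past the core (-1.03) and the direct share on other chromosomes (1.50). Before the changed bases they were microhomology length (0.0106), bait length (-0.0471, and -0.0936 to 0.816 leaving out 1 library), microhomology of 5 or more bases (0.00707), insertions of 11 or more bases (-0.0399), the shares without insertions (0.722 and -0.722), inversional junctions past the core (-0.299), bait-window microhomology length (-0.00964), direct joins on other chromosomes (0.0321) and, though called as deposited, bait ends at AGCT (-0.184). Without XLF-/-PAXX-/- clone 1 they were the shares without insertions (0.0777 and -0.0777), bait-window microhomology length (-0.000148) and the bait-window deletional share (0.136), and without clone 2 microhomology (-0.0625), insertions (0.215) and microhomology length (0.0174) on other chromosomes. Without XLF-/- clone 1 they were insertions of 11 or more bases (-0.0793) and bait-window microhomology length (-0.0282). Without the first XLF-/- run they were the shares without insertions (0.0769 and -0.0769) and bait-window microhomology length (-0.00623), and without the second insertions of 11 or more bases (-0.485) and microhomology length on other chromosomes (0.0540). Read through they were the shares without insertions (0.313 and -0.313) and bait-window microhomology length (-0.000461, or -0.00593 with 2 further bases). With repeats collapsed that length was -8.96e-05 and with thinning -0.0159; microhomology length on other chromosomes was 0.00556 with thinning, and insertions there were 1.43 without gaps over 20 bases. Among uncalled differences, leaving out 1 library also turned the sign of microhomology of 1 base (-0.0394 to 0.373), insertions of 11 or more bases (-0.0167 to 0.391), the shares without insertions (-0.161 to 0.0676 and -0.0676 to 0.161), bait-window microhomology length (-0.00716 to 0.0137) and direct joins on other chromosomes (-1.19 to 0.519). Beyond the changed base the bait treatment sets the values; the cause of the other changes was not tested.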
